A study of Mus musculus with 13 samples.

Results

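The TRIM genes encode a large family of proteins built on a RING, B-box and coiled-coil plan, and they are described here in doxorubicin-treated mouse mammary carcinoma cells. The genes were chosen by name: every entry that began with Trim followed by a digit was taken, which gave 42 of the 13222 genes listed. The libraries came from 4T1-Thy1.1 cells, a triple-negative mammary carcinoma line derived from a BALB/c mouse and carrying a Thy1.1 transgene, so all 4 groups share this background and are a single cell line in culture. Untreated cells (control, n = 3) were set beside cells given doxorubicin at 200 ng/mL (DOX, n = 4), recombinant IL-17A at 25 ng/mL (IL-17A, n = 3) or both agents at these doses (DOX+IL-17A, n = 3), with RNA taken after 48 hours. Doxorubicin is an anthracycline that damages DNA, and IL-17A is an inflammatory cytokine made mainly by T cells. The 2 questions were which TRIM genes follow DOX, and which of them IL-17A lowers in DOX-treated cells.

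In most TRIM proteins the RING domain recruits an E2 enzyme and passes ubiquitin to a substrate that the C-terminal part selects. The commonest C-terminal part is the PRY-SPRY domain, and many genes that encode it are induced by interferon and act in the sensing or restriction of viruses. Other TRIM proteins repress chromatin, bind RNA through NHL repeats or attach to microtubules or muscle fibres.

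Values are reads scaled by library size and TMM factor, called normalized values below. Because only the 3' end of each transcript was sequenced, a value does not grow with transcript length, and levels of different genes can be set side by side on this scale. Reads on listed genes ranged from 4445592 to 16930600 per library, so that 3 reads, taken as the smallest detectable level, corresponded to between 0.183 and 0.613 normalized values. The 6 epithelial markers of the line summed to between 1932 and 2248 in control libraries and between 935 and 1034 with DOX, with all 6 detected. Of the 15 skeletal muscle markers, the sum was 481 in DOX replicate 1 and between 162 and 197 in the other DOX libraries, against 83.1 to 159 in control libraries. Among them Eno3 stood at 135 to 180 in the DOX libraries and at 27.9 to 133 in control. Outside replicate 1 it made up most of the sum in the DOX libraries. The highest DOX values of Myh4 and Acta1, 80.9 and 47.2, were those of replicate 1. In DOX replicate 1 the 3 listed red cell markers also reached 66.5. Control replicate 1 stood apart from its group: compared over genes by their reads, it gave chi-square values of 177 and 116 (per degree of freedom) against the other control libraries, which gave 24.8 against each other. IL-17A replicate 5 did so too, at 94.7 and 62.3 where the others of its group gave 16.1. To a lesser degree so did DOX+IL-17A replicate 5, at 58 and 55.3 where the others gave 19.9. The 4 measured fibroblast markers of 6 listed summed to 128 in control replicate 1 and to 23.1 and 20.2 in the other controls, with 17.8 to 64.1 with DOX, 44.4 to 53.6 with DOX+IL-17A and 16.3 to 34.9 with IL-17A. Col1a1, Col1a2 and Col3a1 made up nearly all of the sum in control replicate 1, and the defining marker Dcn was at or under 0.304 in every control library. Results below are also given without DOX replicate 1 or control replicate 1 where they turn on it, and the part of these markers in them was not tested.

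Genes whose products take part in interferon responses often carry a binding site for interferon regulatory factors near their start, the interferon-stimulated response element (ISRE). Its core letters, 2 copies of GAAA parted by any 2 bases, were searched on both strands in the 300 bases around each annotated start (RefSeq, GRCm38.p6, 250 before to 50 after), where 31 of the 42 genes had an entry. They were found for 9 of the 31 (Trim2, Trim5, Trim12a, Trim12c, Trim21, Trim26, Trim30a, Trim30d and Trim34a), against 3.84% of 10085 listed genes with an entry and 3.44% of all 32851 promoters. The 9 are not independent of one another. The promoters of Trim5 and Trim12a were identical to that of Trim12c at 93.9% and 95.0% of aligned bases, and those of Trim30a and Trim30d were also alike. The 6 promoters below are a selection from the genes that changed with DOX. Trim6, Trim25 and Trim37 also changed with DOX and had an entry without the letters, but are not shown. Trim2, Trim5, Trim12a and Trim34a held the letters but did not pass the test with DOX, and are not shown either. Capitals mark the ISRE letters, on whichever strand they lie, and each sequence reads 5' to 3' along the strand of its gene.
Trim30a, chr7:104465144-104465443, minus strand: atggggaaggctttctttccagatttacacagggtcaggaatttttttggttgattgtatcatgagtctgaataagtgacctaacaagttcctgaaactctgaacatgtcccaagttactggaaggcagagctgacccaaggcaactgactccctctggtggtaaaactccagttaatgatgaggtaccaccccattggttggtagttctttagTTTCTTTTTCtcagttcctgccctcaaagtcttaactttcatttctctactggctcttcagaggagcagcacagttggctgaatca
Trim30d, chr7:104507800-104508099, minus strand: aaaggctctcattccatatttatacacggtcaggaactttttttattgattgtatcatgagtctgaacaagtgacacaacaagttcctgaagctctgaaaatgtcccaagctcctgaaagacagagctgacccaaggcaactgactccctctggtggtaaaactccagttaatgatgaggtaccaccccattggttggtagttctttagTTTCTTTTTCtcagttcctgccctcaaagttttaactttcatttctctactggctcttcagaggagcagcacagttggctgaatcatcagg
Trim30c, chr7:104400729-104401028, minus strand: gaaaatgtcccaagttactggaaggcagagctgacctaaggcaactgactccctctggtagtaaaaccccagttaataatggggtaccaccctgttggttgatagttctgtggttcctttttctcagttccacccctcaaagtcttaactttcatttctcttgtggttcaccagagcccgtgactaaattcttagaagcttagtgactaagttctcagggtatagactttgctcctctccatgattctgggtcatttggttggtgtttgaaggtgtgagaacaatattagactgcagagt
Trim12c, chr7:104353300-104353599, minus strand: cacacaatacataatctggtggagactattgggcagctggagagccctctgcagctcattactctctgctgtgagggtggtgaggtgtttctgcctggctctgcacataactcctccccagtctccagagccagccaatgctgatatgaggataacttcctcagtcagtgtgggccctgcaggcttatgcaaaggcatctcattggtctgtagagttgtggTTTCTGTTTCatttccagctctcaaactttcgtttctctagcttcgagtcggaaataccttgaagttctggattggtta
Trim21, chr7:102565433-102565732, minus strand: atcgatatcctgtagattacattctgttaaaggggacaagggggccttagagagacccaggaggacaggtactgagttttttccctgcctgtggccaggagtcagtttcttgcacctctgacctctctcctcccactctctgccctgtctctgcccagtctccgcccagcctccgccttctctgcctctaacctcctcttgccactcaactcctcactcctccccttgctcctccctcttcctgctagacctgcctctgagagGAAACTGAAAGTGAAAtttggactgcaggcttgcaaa
Trim26, chr17:36836896-36837195, plus strand: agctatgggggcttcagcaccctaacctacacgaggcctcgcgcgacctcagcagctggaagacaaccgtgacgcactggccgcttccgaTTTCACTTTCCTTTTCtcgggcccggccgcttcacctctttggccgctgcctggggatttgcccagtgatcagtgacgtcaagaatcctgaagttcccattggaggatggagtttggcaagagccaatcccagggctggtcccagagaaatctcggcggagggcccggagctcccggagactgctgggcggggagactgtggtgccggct

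The first ISRE letter lay 36 bases before the annotated start in Trim30a, 41 before it in Trim30d and 29 before it in Trim12c. It lay 160 bases before the start in Trim26 and 13 bases after it in Trim21, and in these 2 genes a second match overlapped the first. The Trim30a and Trim30d promoters were identical at 276 of 295 aligned bases (93.6%). The Trim30c promoter was identical to that of Trim30a at 165 of 191 aligned bases (86.4%), and the stretch aligned with the ISRE letters differed from them at 1 of 10 bases, so the letters were not matched there. A match of letters is a description of the sequence and does not show binding.

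The TRIM genes spanned a wide range of levels in these cells. Over all 13 libraries, 4 genes averaged above 100 normalized values, 17 between 10 and 100, 17 between 1 and 10, and 4 under 1, and their median of 8.89 compared with 18.8 over all listed genes. All 42 passed the filter on low reads and were tested. By the mean over all 13 libraries the highest was Trim28, the KRAB zinc finger corepressor also called KAP1, at 188. It was followed in that order by Trim37, a ligase of centrosomes and peroxisomes, Trim25, a ligase that acts on RIG-I, Trim56, an RNA-binding antiviral factor, and Trim59. In control cells alone Trim37, at 213 ± 106 (SD, n = 3), stood above Trim28, at 173 ± 33.2 (SD, n = 3). Each of these 5 overlapped its neighbour in the order given across the control libraries. Within each control library, however, Trim37 stood above Trim25 (335 against 162, 147 against 85.1 and 156 against 98.2). The other neighbours changed order from 1 control library to another.

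**Figure D1:**
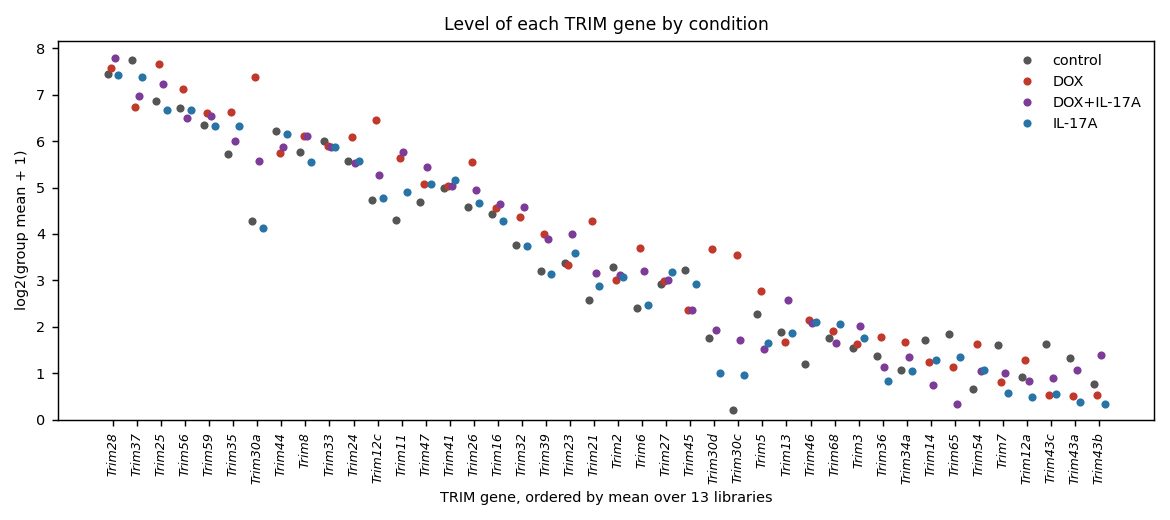
Mean level of each of the 42 TRIM genes in each condition, as log2(group mean + 1) of normalized values, with genes ordered by their mean over 13 libraries and 1 point per condition. Trim28 had the highest mean over all libraries, and the DOX points stood farthest above the others for Trim30a, Trim30c and Trim30d.

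With DOX, 7 of the 42 TRIM genes rose past an adjusted p of 0.05 and a fold change of 2, and 0 fell. Over all 12319 genes tested, 9.15% rose and 6.18% fell by the same rule, so that the 7 of 42 are to be read against 9.15%. Those that rose were Trim30a, Trim30c, Trim30d, Trim12c, Trim21, Trim11 and Trim6, all on the list of genes with a PRY-SPRY domain. By the adjusted p alone, Trim25 and Trim26 rose too and Trim37 fell, making 9 up and 1 down, where 12.4% of all genes rose and 9.71% fell. The median log2 fold change was 0.30 over the TRIM genes and 0.09 over all genes tested. Differences were tested by limma with trend on log2(value + 1), with Benjamini-Hochberg adjustment over all genes tested.

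Trim30a, an interferon-induced regulator that restrains Toll-like receptor signalling, had the smallest adjusted p. It stood at 19.1, 16.0 and 20.5 in the control libraries, and at 102, 114, 207 and 238 in the 4 DOX libraries. The groups did not overlap, and within the DOX group replicates 3 and 4 were higher than replicates 1 and 2. The log2 fold change was 3.0 (SE 0.31, adjusted p = 2.4e-05, limma), or 8.01-fold, and it was 3.20 without DOX replicate 1.

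Trim12c, a mouse relative of the human retroviral restriction factor TRIM5, stood at 22.8, 32.0 and 21.9 in control and at 77.2, 59.9, 109.9 and 101 with DOX. The groups did not overlap, and the log2 fold change was 1.71 (SE 0.28, adjusted p = 0.00074, limma). Trim21, the cytosolic antibody receptor that directs antibody-coated virus to the proteasome, was between 4.83 and 5.24 in the 3 control libraries. It was 10.5, 18.4, 21.8 and 22.7 with DOX, again without overlap (log2 fold change 1.64, SE 0.32, adjusted p = 0.0027, limma).

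Trim30c and Trim30d are neighbours and close relatives of Trim30a, and both were much lower than it. Trim30c was near the detection limit in control libraries, at 0.169, 0.304 and 0, and reached 5.47, 2.19, 21.3 and 14.0 with DOX. Its log2 fold change was 2.99 (SE 0.58, adjusted p = 0.0024, limma), a size that depends on the pseudocount and was 5.15 with a pseudocount of 0.1. Trim30d was 4.74, 0 and 2.36 in control and 7.49, 6.35, 17.3 and 15.9 with DOX (log2 fold change 2.14, SE 0.57, adjusted p = 0.016, limma). Of the 75-base stretches in the final 500 bases of annotated Trim30d transcripts, 15.4% also occur in Trim30a, so part of the Trim30d value could be reads of Trim30a, whereas the ends of Trim30a and Trim30c shared none with another gene. The Trim30d call was lost with edgeR's quasi-likelihood test (adjusted p = 0.12) and with DESeq2 (adjusted p = 0.065), and without control replicate 3 (limma, log2 fold change 1.43).

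Trim6 makes unanchored ubiquitin chains in interferon signalling, and Trim11 promotes the breakdown of misfolded proteins. Trim6 stood at 0.846, 5.60 and 6.37 in control and at 8.29, 5.47, 16.9 and 17.2 with DOX, and these groups overlapped (log2 fold change 1.40, SE 0.49, adjusted p = 0.049, limma). Trim11 stood at 5.75, 22.2 and 28.5 in control and at 43.9, 42.6, 46.7 and 61.2 with DOX, without overlap (log2 fold change 1.56, SE 0.44, adjusted p = 0.02, limma). In both genes control replicate 1 was far below the other 2 control libraries. Without that library the log2 fold change was 0.76 (adjusted p = 0.21, limma) for Trim6 and 0.91 (adjusted p = 0.067, limma) for Trim11, so neither call held. The Trim6 call lay at the threshold and was lost in 10 of the 13 fits with 1 library left out, so it did not turn on this library alone. Control replicate 1 is also the library with the high fibroblast marker sum, whose part here was not tested. The Trim11 call was also lost without DOX replicate 4 (adjusted p = 0.057, limma).

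**Figure D2:**
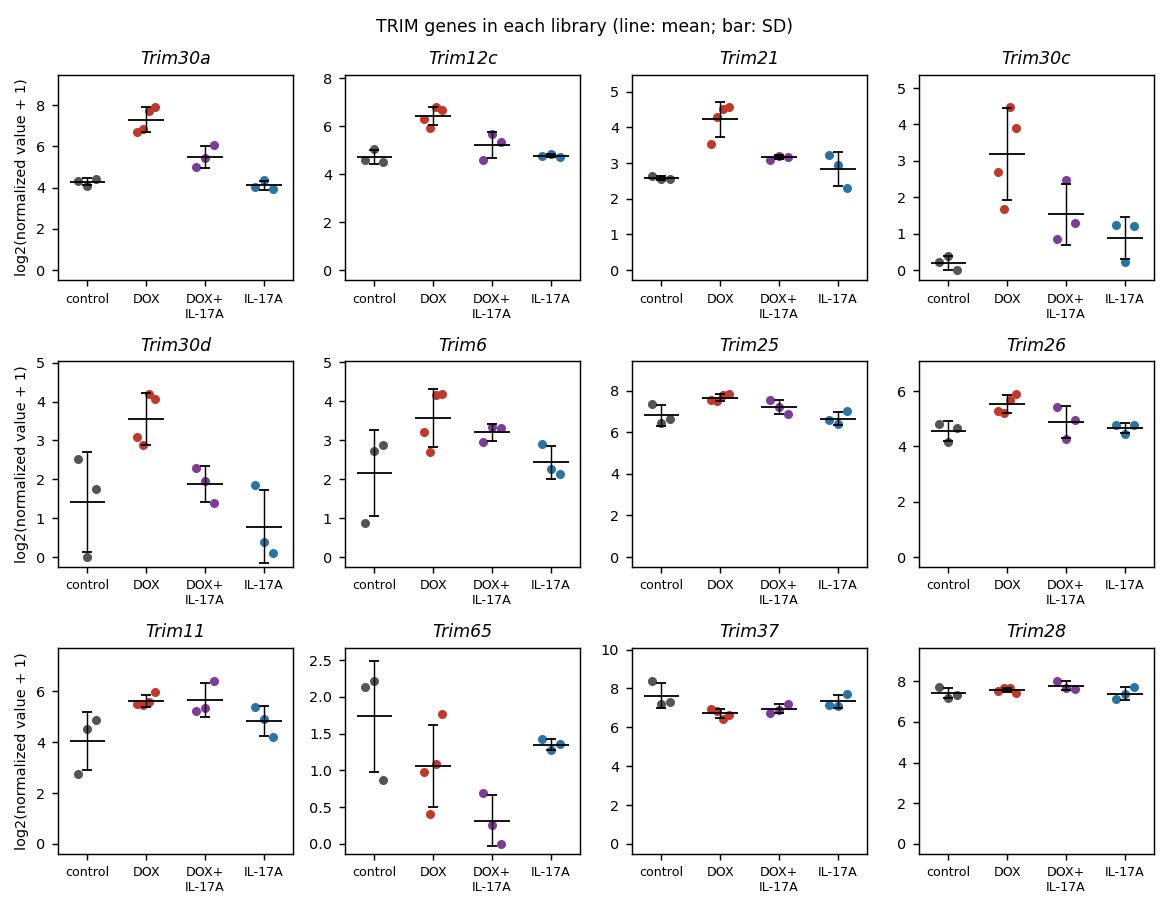
Each library's level of 12 TRIM genes, as log2(normalized value + 1), with 1 point per library, a line at the group mean and a bar of 1 SD; the vertical axis differs between panels. Trim30a, Trim12c, Trim21, Trim30c and Trim30d were higher in all 4 DOX libraries than in the 3 control libraries, and control replicate 1 was the lowest control library for Trim6 and Trim11 and the highest for Trim37.

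Trim25 and Trim26 rose by less than 2-fold in the main fit. Trim25 ranged from 85.1 to 162 in control and was 185, 178, 220.1 and 227 with DOX (log2 fold change 0.86, SE 0.24, adjusted p = 0.02, limma). Trim26 ranged from 16.8 to 27.2 in control and was 37.9, 36.1, 50.2 and 58.4 with DOX (log2 fold change 0.97, SE 0.29, adjusted p = 0.025, limma). Neither gene overlapped between the groups.

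Trim37 was the TRIM gene that fell by the adjusted p alone. It stood at 335, 147 and 156 in control and at 122, 114, 85.7 and 98.8 with DOX, with a log2 fold change of -0.91 (SE 0.27, adjusted p = 0.025, limma). Control replicate 1 was far above the other control libraries, and without it the log2 fold change was -0.54 (adjusted p = 0.085, limma). The same library was the lowest control library for Trim35, at 12.0 against 91.1 and 51.9, and IL-17A replicate 5 was likewise lowest for Trim35 in its group, at 27.8 against 129.5 and 80.3.

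Of 15 TRIM genes listed as interferon-linked or antiviral, 13 were measured. With DOX 6 of the 13 were called up and 0 down, where 9.15% of all genes were called up and 6.18% down. The median log2 fold change of the 13 was 0.97, and 12 of 13 were above 0. The 6 were Trim6, Trim12c, Trim21, Trim30a, Trim30c and Trim30d, and Trim25 and Trim26 passed the adjusted p alone. The other members did not pass the test. Trim56 was between 91.7 and 126 in control and between 95.8 and 172 with DOX (log2 fold change 0.37, SE 0.25). Trim14, an adaptor of the mitochondrial antiviral protein MAVS, was between 2.03 and 2.62 in control and between 0.699 and 2.68 with DOX (log2 fold change -0.54, SE 0.47). Trim5, Trim12a and Trim34a stayed at or under 11.7 in every library, with log2 fold changes of 0.31, 0.39 and 0.61. Reads of Trim5 and Trim34a are uncertain, since 20.3% of the end stretches of Trim5 occur in Trim12c or a pseudogene and 17.6% of those of Trim34a occur in Trim34b. For Trim12a the share was 0.0%. For Trim12c it was 4.0%, and Trim12c shares exon sequence on the same strand with Gm27995.

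Rising and non-rising TRIM genes were also split by class. Of the 42 genes, 21 were listed with a PRY-SPRY domain, and these held all 7 calls, with a median log2 fold change of 0.74, where 9.15% of all genes were called up. The other 21 held 0 calls and had a median of 0.07. Among the 9 genes with ISRE letters, 4 were called up (Trim12c, Trim21, Trim30a and Trim30d) and the median was 0.97. Among the 22 with a promoter entry but without the letters, 2 were called up (Trim6 and Trim30c), a share near the 9.15% of all genes, and the median was 0.21. Trim11, also called, was among the 11 genes without an entry. Trim2 held the letters at 1 of its annotated starts only and had a log2 fold change of -0.32.

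Of the 42 genes, 8 lie together on chromosome 7, between bases 104218793 and 104507849 of mm10, a stretch of 289 kb that holds 10 protein-coding genes, all of them TRIM genes. The measured 8 are, in order, Trim6, Trim34a, Trim5, Trim12a, Trim12c, Trim30c, Trim30a and Trim30d, and Trim34b and Trim30b were not analysed here. With DOX, 5 of the 8 were called up and all 8 had a log2 fold change above 0, with a median of 1.56. Of these 5, Trim6 and Trim30d did not keep their calls in every fit. Of the 34 TRIM genes elsewhere, 2 were called up and the median was 0.11. Both counts are to be read against the 9.15% of all genes called up. The larger changes lay at the Trim12c to Trim30d end of the stretch, where all 4 measured genes were called. These neighbours are related by sequence as well as by position, with the promoters of Trim12c and Trim12a identical at 95.0% of 260 aligned bases although only Trim12c was called. Trim12a averaged only 0.931 over all libraries, a level at which log2(value + 1) understates fold changes. The missing call therefore does not show that the 2 genes responded differently.

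**Figure D3:**
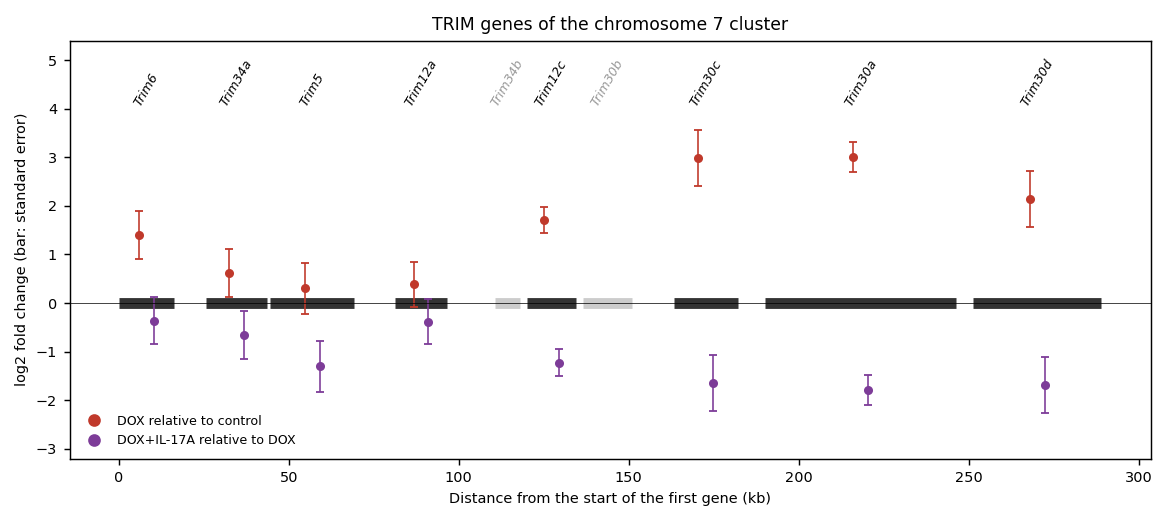
Log2 fold changes of the 8 measured TRIM genes of the chromosome 7 cluster, placed by distance in kb from the start of the first gene, for DOX relative to control and for DOX+IL-17A relative to DOX (bars are standard errors; grey genes were not analysed). All 8 lay above 0 in the first comparison and below 0 in the second.

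When IL-17A was added to DOX, 1 TRIM gene, Trim30a, fell past both thresholds and 0 rose. Over all genes tested, 0.325% fell and 0.114% rose. The groups did not overlap for 6 TRIM genes that were lower (Trim12c, Trim21, Trim24, Trim30a, Trim30d and Trim35) and 2 that were higher (Trim13 and Trim23), where 5.61% of all genes were lower and 4.66% higher in that sense. In DOX against control the corresponding counts were 9 higher and 3 lower, where 18.5% and 15.2% of all genes were. The comparisons with DOX share the 4 DOX libraries, so a gene that is high in them by chance appears higher in the first and lower in the second.

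Trim30a stood at 31.1, 42.2 and 66.0 with DOX+IL-17A, below every DOX library and above every control library. The log2 fold change from DOX to DOX+IL-17A was -1.78 (SE 0.31, adjusted p = 0.018, limma). Against control, DOX+IL-17A left Trim30a 1.22 higher on the log2 scale (adjusted p = 0.021, limma), a call lost without control replicate 3 (0.051) or DOX+IL-17A replicate 3 (0.054) or 5 (0.083). The fall was -1.98 without DOX replicate 1 (adjusted p = 0.016). It kept its direction without any other library, but the call was lost without DOX replicate 3 (adjusted p = 0.11), DOX replicate 4 (0.1) or DOX+IL-17A replicate 2 (0.11), 3 (0.13) or 5 (0.05).

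Trim12c, Trim21 and Trim30d were the other genes with an unadjusted p under 0.01, and none of them passed the adjusted threshold. Trim12c stood at 23.3, 49.8 and 39.0 with DOX+IL-17A, against 59.9 or more with DOX (log2 fold change -1.22, SE 0.28, adjusted p = 0.084, limma). DESeq2 on the recovered reads called it (adjusted p = 0.0086), as did limma without control replicate 1 (0.034) or DOX replicate 2 (0.049). Trim21 was 7.57, 8.24 and 8.05, a narrow range below the lowest DOX library (log2 fold change -1.06, SE 0.32, adjusted p = 0.3, limma). Trim30d was 3.89, 2.88 and 1.62 (log2 fold change -1.68, SE 0.57, adjusted p = 0.44, limma). Trim30c, at 0.818, 4.57 and 1.44, overlapped the DOX libraries (log2 fold change -1.65, SE 0.58, adjusted p = 0.47, limma).

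The 13 measured interferon-linked genes all had a log2 fold change below 0 between DOX+IL-17A and DOX, with a median of -0.66, where the median of all genes was -0.03. In the chromosome 7 cluster the median was -1.26 and all 8 were below 0, against a median of 0.03 for the 34 genes elsewhere. For Trim25, the log2 fold change of -0.46 had a 95% interval from -0.98 to 0.05, and for Trim26 the value of -0.63 had one from -1.24 to -0.03, with adjusted p of 0.89 and 0.76 (limma). Trim11 differed by 0.03, with an interval from -0.91 to 0.97, which leaves room for changes of nearly 2-fold either way. It stood at 36.2, 39.0 and 83.8 with both agents and was called up against control there as well (log2 fold change 1.59, adjusted p = 0.03, limma), a call lost without control replicate 1 (adjusted p = 0.073) or DOX+IL-17A replicate 3 (0.053) or 5 (0.12).

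**Figure D4:**
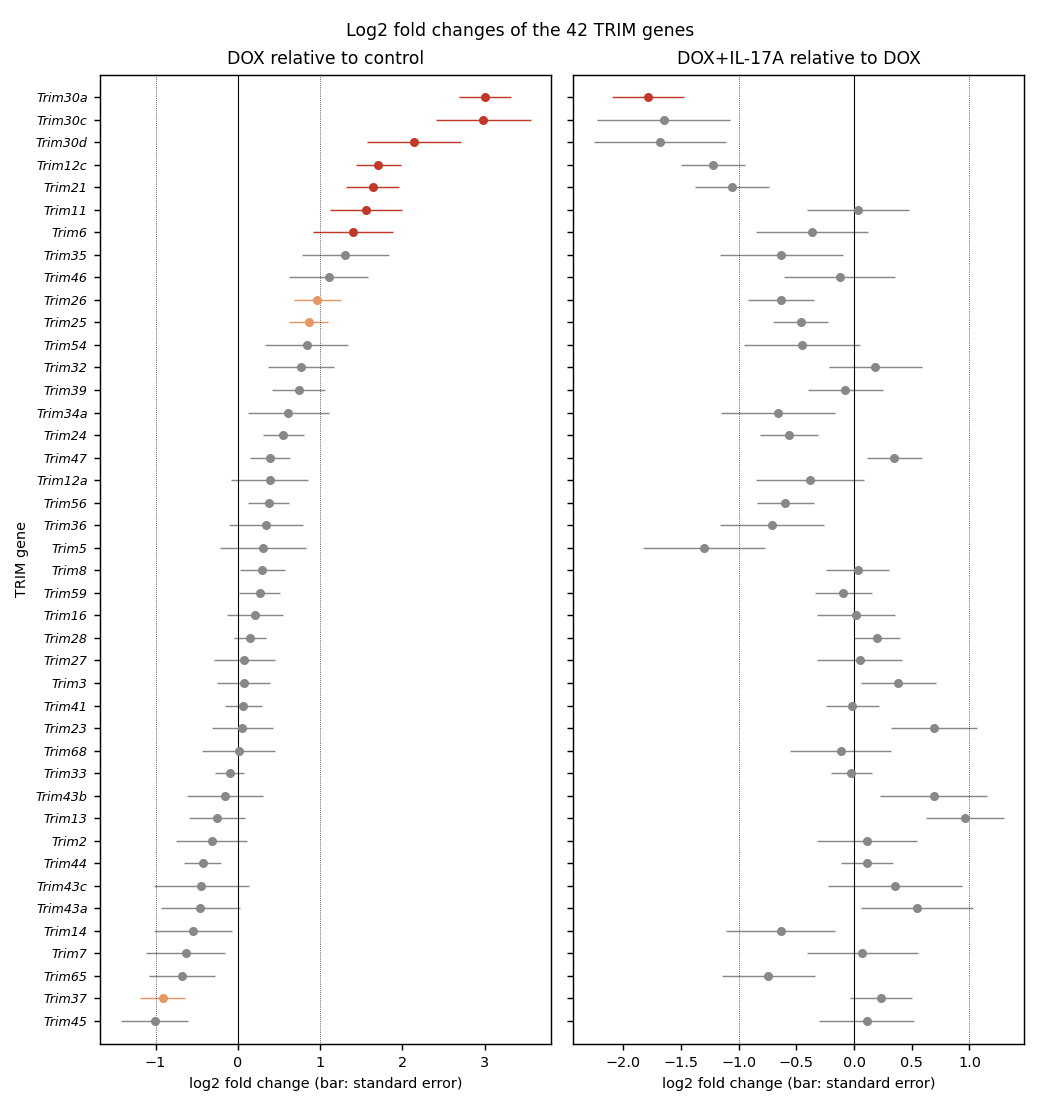
Log2 fold changes of the 42 TRIM genes for DOX relative to control (left) and DOX+IL-17A relative to DOX (right), ordered by the left panel, with bars of 1 standard error. Red points passed the adjusted p and the fold threshold, orange points the adjusted p alone, and dotted lines mark a 2-fold change; Trim30a was the highest point on the left and the lowest on the right.

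Trim65, a ligase that acts on the RNA sensor MDA5, was the gene that fell past both thresholds between control and DOX+IL-17A. It stood at 3.38, 3.65 and 0.825 in control and at 0.613, 0.199 and 0 with both agents, levels near the detection limit (log2 fold change -1.42, SE 0.43, adjusted p = 0.033, limma). The call was lost without control replicate 1 (adjusted p = 0.079) or 3 (0.1), and without DOX+IL-17A replicate 3 (0.085) or 5 (0.092). Trim65 shares exon sequence on the same strand with Trim47, but 0.0% of the end stretches of either gene occur in another gene. Whether the exon overlap affects the split of their reads was not tested. Over all genes, 6.95% rose and 5.95% fell in this comparison, against 2 and 1 of the 42 TRIM genes. Between IL-17A and DOX+IL-17A, Trim30a was the called gene, from 15.4, 19.3 and 14.4 to the values above (log2 fold change 1.39, adjusted p = 0.014, limma), where 4.92% of all genes rose and 4.92% fell. That call was lost without DOX+IL-17A replicate 5 (log2 fold change 1.11, adjusted p = 0.056).

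IL-17A alone called 0 of the 42 TRIM genes, with 0 at an unadjusted p under 0.05 and a lowest adjusted p of 0.96 (limma). It called 0.00812% of all genes. Trim30a differed from control by -0.17 on the log2 scale (95% interval -0.88 to 0.54), and Trim12c by 0.06 (-0.57 to 0.68). The test of whether the effect of IL-17A differed with and without DOX gave 0 TRIM genes and 0.0% of all genes at an adjusted p under 0.05. Its lowest adjusted p among TRIM genes was 0.8 for Trim30a (difference -1.61, SE 0.46, unadjusted p = 0.003, limma), and 4 TRIM genes had an unadjusted p under 0.05. So a fall in DOX-treated cells and none in untreated cells was not shown to differ for any TRIM gene.

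The TRIM genes listed for chromatin, NHL, cytoskeletal, muscle or membrane roles did not pass both thresholds in any comparison. The chromatin-linked Trim24, Trim28 and Trim33 were called in none, and Trim33, a partner of the SMAD proteins, ranged only from 51.5 to 65.1 over all 13 libraries. Trim28 changed by 0.15 with DOX (95% interval -0.27 to 0.57) and by 0.20 between DOX and DOX+IL-17A (-0.22 to 0.61). Trim24, a bromodomain protein that acts on p53, did not overlap in either comparison, at 30.8 to 58.5 in control, 59.6 to 72.8 with DOX and 37.4 to 54.6 with DOX+IL-17A, but missed the adjusted threshold both times (adjusted p = 0.12 and 0.74, limma). The 3 genes with NHL repeats, Trim2, Trim3 and Trim32, had log2 fold changes with DOX of -0.32, 0.07 and 0.77. Trim46, which organizes microtubules at the start of axons, and Trim36 were at or under 5.31 in every library.

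Trim54, a protein of the muscle sarcomere, was between 0 and 4.16, with its 2 highest values in DOX replicates 1 and 2, and it was not called. The embryonic Trim43a, Trim43b and Trim43c averaged low and share up to 34.5% of their end stretches with one another, and Trim43a and Trim43c were highest in control replicate 1, at 4.23 and 6.26. Trim13 and Trim23, both linked to cell membranes, were higher with DOX+IL-17A than with DOX without overlap. Trim13 was 6.13, 3.87 and 4.99 against 0.979 to 3.67 (log2 fold change 0.96, adjusted p = 0.47, limma), and Trim23 was 14.1, 17.1 and 13.5 against 5.69 to 10.9 (0.69, adjusted p = 0.92). Neither passed the adjusted threshold.

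Pml, a TRIM family gene without the usual name (TRIM19) whose product forms nuclear bodies, was called up with DOX, from 46.7 ± 1.05 (SD, n = 3) to 99.3 ± 21.9 (SD, n = 4), with a log2 fold change of 1.04 (adjusted p = 0.006, limma). The related Mid1 and Mid2 did not pass. Among 12 E2 enzymes that work with TRIM ligases, 1 was called up and 0 down with DOX, a share near the 9.15% of all genes called up. It was Ube2l6, the enzyme that transfers the ubiquitin-like protein ISG15, at 1.26 ± 1.43 (SD, n = 3) in control and 6.20 ± 1.58 (SD, n = 4) with DOX (log2 fold change 1.83, adjusted p = 0.012, limma). Ube2e3 fell by the adjusted p alone, by 0.71 on the log2 scale. Of 12 partners of Trim28 in gene repression, 0 were called, and Hdac1 passed the adjusted p alone (log2 fold change 0.82, adjusted p = 0.011).

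Several TRIM proteins act on sensors of foreign RNA and DNA, and 15 of 16 listed genes of that pathway were tested. With DOX 5 were called up and 0 down, with a median log2 fold change of 0.77, where 9.15% of all genes were called up. Between DOX and DOX+IL-17A 5 were called down and 0 up, with a median of -0.46, where 0.325% of all genes were called down. Irf7, a transcription factor of the interferon response, stood at 9.56 ± 3.18 (SD, n = 3) in control, 98.9 ± 38.9 (SD, n = 4) with DOX and 25.0 ± 5.34 (SD, n = 3) with DOX+IL-17A. Ifih1, which encodes MDA5, changed by 1.52 with DOX and by -1.24 when IL-17A was added (adjusted p = 0.00085 and 0.041, limma). Dhx58 changed by 2.27 and -1.79 (adjusted p = 0.00086 and 0.049).

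Immune cell markers were low but moved with the same groups. The summed level of the 4 measured markers of 8 listed was 18.6 to 21.3 in control, 27.1 to 51.3 with DOX and 12.5 to 19.6 with DOX+IL-17A. Cd68 and Csf1r made up most of it, whereas Ptprc, the pan-leukocyte marker CD45, was at or under 1.52 in control and DOX libraries and between 2.45 and 3.57 with DOX+IL-17A, and Cd3e, Cd79a, Lyz2 and Tyrobp were not analysed here. The sum was highest in DOX replicates 1 and 2, while Trim30a was highest in DOX replicates 3 and 4. The part of these markers in the TRIM results was not tested.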

How the data were processed

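RNA of 4T1-Thy1.1 cells was sequenced as 3' mRNA libraries (13 in 4 groups). Per the labels and the methods, the authors trimmed reads with Trimmomatic, aligned them to mm10 with STAR, counted them with featureCounts and normalized them by TMM. The strand setting of the counting is not given in the sources used here. The deposited values are a normalized signal, reads scaled by library size and TMM factor. In every library 100.0% of them were whole multiples of 1 read, which gave back the reads. The margin was 0.01 of a read at low counts and widened in proportion to the count at higher ones, where the check is weak. A second, identical entry of 1 gene was dropped.

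The main test was limma 3.58.1 with trend on log2(value + 1), with group as the only factor and all 13 libraries (9 residual degrees of freedom). It covered 12319 genes kept by filterByExpr of edgeR 4.0.16 on the recovered reads, with Benjamini-Hochberg adjustment over them. A call needed a fold change above 2 and an adjusted p under 0.05, without the fold threshold where IL-17A effects were compared with each other. Fold changes are on the log2(value + 1) scale, which understates those of low genes. Detection limits of reads cover counting error only, while the 95% intervals of fold changes come from the limma fit and reflect the spread between libraries. The paper describes its data in general as coming from biological replicates, without naming these libraries there. Nothing in the labels says that replicates are separate cultures, so p-values measure the spread between these libraries, which may be technical.

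Members were taken by name, and the members, lists and tests were chosen with earlier results of these data known. Genes given with values in full were those called in any comparison, those with an unadjusted p under 0.01 for DOX+IL-17A against DOX, the interferon-linked list and the 5 highest. Trim13, Trim23, Trim24 and Trim35 were given values because they did not overlap between groups or followed 1 library, chosen after their values were seen. Positions came from GENCODE on the same build, promoters from RefSeq, and promoter identity from a global alignment in biopython 1.88. Alternatives were voom with limma, edgeR's quasi-likelihood test and DESeq2 1.42.0 on those reads, library-size scaling, other filters, a pseudocount of 0.1, fits of the compared groups, a replicate block, no fold threshold, and each library left out. The tests were tried on simulated data first. R 4.3.3, python 3.11.15, numpy 2.4.6 and pandas 2.3.3 were used.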

Additional observations from a re-analysis of the deposited data

How the results depend on the processing

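The count of TRIM genes called for DOX against control stayed between 5 and 8 with 1 library left out. Trim12c, Trim21, Trim30a and Trim30c kept their calls in each of the 13 such fits. For DOX+IL-17A against DOX the count was 2 with DESeq2 (Trim12c and Trim30a) and 0 to 2 with 1 library left out, and for DOX+IL-17A against control it was 0 when only the groups compared were fitted and 0 to 3 with 1 library left out. For DOX+IL-17A against IL-17A it was 0 to 1. The Trim6 rise with DOX was no longer called under 16 of 22 alternatives. Directions turned for Trim5 with DOX (-0.059 to 0.58 with 1 library left out, below 0 without DOX replicate 3) and, between DOX+IL-17A and DOX, for Trim11 (-0.35 to 0.25) and Trim59 (-0.31 to 0.13), none of them called. Scaling by library size alone moved the median of all genes from 0.09 to 0.24 for DOX against control, and the causes of these shifts were not tested. Levels under the value of 3 reads cannot be told from 0.

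Replicate numbers recur between groups, but the labels do not say what they share. Same-numbered libraries correlated between -0.18 and 0.49 in their deviations from the group means (median 0.17, 13 pairs, 8 above 0.1). Differently numbered libraries of different groups correlated between -0.56 and 0.47, most of them at or under 0.1. What same-numbered libraries share was not tested. The main fit did not pair them, and the fit with a replicate block is set beside it. With the replicate block the count for DOX+IL-17A against DOX was 0 (Trim30a -1.72, adjusted p = 0.071, limma) and for DOX+IL-17A against control it was 1 (Trim30a, with Trim11 and Trim65 lost at adjusted p of 0.089 and 0.07). For DOX against control it was 6: Trim6 (adjusted p = 0.087, limma) and Trim30d (0.095) lost their calls, Trim46 gained one, and Trim25 (0.081) and Trim26 (0.097) missed the adjusted p. The Trim11 difference between DOX+IL-17A and DOX was -0.27.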
